A study of Mus musculus with 25 samples.

Results

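The macrophage genes of the peripheral nerve were followed in whole sciatic nerve of mice that model CMT1A, the demyelinating Charcot-Marie-Tooth neuropathy caused by an additional copy of PMP22. They are 10 genes out of the 56956 in the count table, taken by name from a fixed list. The list was chosen with earlier results of these data known. It holds the macrophage markers Cd68, Adgre1, Csf1r, Trem2, Lyz2, Mrc1, Spp1, Gpnmb and Lgals3, and the ligand Csf1. All 10 were found in the table by their Ensembl identifiers, and all 10 passed the filter on low counts. The libraries fall into 5 groups. C3 mice carry the human PMP22 gene as a transgene on C57BL/6J, and WT-C3 are their C57BL/6J controls. C22 mice carry more copies of human PMP22 on FVB/NRJ, and WT-C22 are their FVB/NRJ controls. The group C3-cJunP0Cre carries the C3 transgene and lacks c-Jun in Schwann cells through a Cre active in these cells, and the labels do not give its strain background or a c-Jun knockout without the transgene. Each group has 1 library per age, the ages being 3, 5, 7, 9 and, as the oldest, 12 weeks, and each library is a pool of the nerves of 4 to 5 untreated animals of both sexes. The 5 libraries of a group, which differ in age, were taken as replicates (n = 5), so each SD, standard error (SE) and p-value measures the spread between these pools, age included. Copy number and strain change together between C22 and C3, and their effects cannot be told apart.

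Resident macrophages of a nerve sit among the axons in the endoneurium or in the surrounding epineurium, and they clear myelin debris after injury and in demyelinating neuropathies. Their survival depends on the receptor CSF1R, which is activated by CSF1 and by IL-34. TREM2 is a lipid-sensing receptor that signals through the adaptor TYROBP and marks lipid-handling macrophages, a state in which Gpnmb, Lgals3 and Spp1 are also often high. Several members are not particular to macrophages: Spp1 (osteopontin), Gpnmb and Lgals3 (galectin-3) can also be made by Schwann cells, Lyz2 by neutrophils and Mrc1 by some endothelial cells. Whole nerve does not tell the endoneurium from the epineurium, and in bulk RNA fewer cells of a type and less RNA per cell cannot be told apart.

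The promoters of 8 of the 10 members are in the RefSeq promoter table of build GRCm38.p6, which covers 250 bases before and 50 bases after each start of transcription, and the promoters of Adgre1 and Csf1r were not used here. The 4 printed here, each on the plus strand, belong to the members whose levels differ most between groups below. They are those of Trem2 (chr17:48346151-48346450), Lgals3 (chr14:47373610-47373909), Spp1 (chr5:104434861-104435160, the upstream of its 2 entries) and Gpnmb (chr6:49036268-49036567). Capitals mark matches on either strand to 3 motifs. GAGGAAG is the core bound by PU.1, the factor that sets macrophage identity. TGANTCA is a loose form of the AP-1 site bound by c-Jun dimers. TCANGTG is a loose form of the M-box of the MiT factors of lysosomal genes. N stands for any base, so a match need not be a site that these factors bind.
Trem2: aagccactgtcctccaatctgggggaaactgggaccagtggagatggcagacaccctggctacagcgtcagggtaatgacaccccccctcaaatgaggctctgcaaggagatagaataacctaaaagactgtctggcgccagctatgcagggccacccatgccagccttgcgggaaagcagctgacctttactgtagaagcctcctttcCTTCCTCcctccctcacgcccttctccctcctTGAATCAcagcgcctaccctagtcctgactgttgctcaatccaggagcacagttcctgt
Lgals3: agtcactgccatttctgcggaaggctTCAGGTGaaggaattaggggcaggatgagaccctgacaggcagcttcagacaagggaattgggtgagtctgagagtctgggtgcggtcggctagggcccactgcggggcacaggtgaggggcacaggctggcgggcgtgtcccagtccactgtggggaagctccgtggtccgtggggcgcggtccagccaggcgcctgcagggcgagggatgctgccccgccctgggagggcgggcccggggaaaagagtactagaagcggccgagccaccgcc
Spp1: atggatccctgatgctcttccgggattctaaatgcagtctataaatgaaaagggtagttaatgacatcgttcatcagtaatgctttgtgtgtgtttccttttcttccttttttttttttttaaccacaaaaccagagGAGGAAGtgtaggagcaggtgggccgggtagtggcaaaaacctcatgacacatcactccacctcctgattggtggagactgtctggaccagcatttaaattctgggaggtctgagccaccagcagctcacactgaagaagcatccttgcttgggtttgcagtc
Gpnmb: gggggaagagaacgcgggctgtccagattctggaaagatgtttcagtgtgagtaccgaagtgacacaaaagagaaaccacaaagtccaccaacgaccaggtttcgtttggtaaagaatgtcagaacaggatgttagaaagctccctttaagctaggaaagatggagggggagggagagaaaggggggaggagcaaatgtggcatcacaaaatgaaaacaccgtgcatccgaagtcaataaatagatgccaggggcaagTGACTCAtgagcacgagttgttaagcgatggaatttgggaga
The Trem2 promoter holds a PU.1 core at -41 and a TGANTCA match (TGAATCA) at -9 from the start of transcription. The Gpnmb promoter holds a TGANTCA match (TGACTCA) at 9. The Lgals3 promoter holds a TCANGTG match (TCAGGTG) at -224 and the Spp1 promoter a PU.1 core at -113. Of the others, Mrc1 holds 2 PU.1 cores, Cd68 holds 2 TGANTCA matches and Lyz2 holds 1 TCANGTG match (TCAAGTG). Csf1 and the downstream entry of Spp1 hold none of the 3. Among all 32851 promoters of the table, 13.6% hold the PU.1 core, 7.81% hold TGANTCA and 14.3% hold TCANGTG. A match describes the letters only, and binding was not measured.

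Between 2140142 and 49072746 counts fell on genes per library (median 24663235), and the C3 library of 9 weeks was by far the shallowest, with 15 counts for Cd68 and 21 for Trem2. Levels are given as CPM, the share of a gene in the library after scaling of library sizes by the TMM method, and each comparison was tested with the quasi-likelihood test of edgeR on all 13993 genes that passed the filter, with a threshold of 0.05 on p-values adjusted by the Benjamini-Hochberg method. Human PMP22 was at 7900 CPM or more in every transgenic library and at 6.43 CPM or less in every control library. Its levels overlapped between the models, at 10100 to 14000 CPM in C3 and 9800 to 14000 CPM in C22. Jun, the targeted gene of the knockout, was between 26.4 and 31.8 CPM in C3-cJunP0Cre and between 94.1 and 125 CPM in C3 (adjusted p = 7.29e-07). Defining macrophage genes were present in every library, with Csf1r at 49.9 CPM or more and Cx3cr1 at 5.91 CPM or more, while most markers of neutrophils and lymphocytes were near 0. Of 10 neutrophil markers, 9 did not pass the filter (S100a8 at most 1.41 CPM and S100a9 at most 0.558 CPM). The other, Csf3r, was low but rose in C3 (means of 3.57 and 1.59 CPM, adjusted p = 0.00705) and in C22 (2.55 and 1.46 CPM, adjusted p = 0.0191). Summed markers of red blood cells (45.5 to 1580 CPM), mast cells (33 to 275 CPM) and dendritic cells (50.3 to 319 CPM) varied widely between libraries. None of 11 T, NK and B cell markers passed the filter. The summed level of those 11 was at most 4.97 CPM in 24 libraries and 29.7 CPM in the C22 library of 9 weeks.

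Per kilobase of exon, Spp1 had the highest mean level of the members in WT-C3, at 228 ± 71.6 CPM per kb (SD, n = 5), followed by Lyz2 at 48.7 ± 11.7. Lgals3 (12.0 ± 3.76 CPM per kb), Csf1r (11.7 ± 2.50), Csf1 (9.60 ± 1.96) and Cd68 (9.52 ± 1.66) did not differ from their neighbours in this order beyond their SDs. Mrc1, Adgre1 and Gpnmb lay between 5.05 and 7.75 CPM per kb, and Trem2 was the lowest at 0.741 ± 0.104. In C22 the order was different at its upper end. There Lyz2 led at 35.8 ± 10.2 CPM per kb, and Spp1 was the seventh at 5.30 ± 2.49, while Trem2 was still the lowest at 2.19 ± 0.355.

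The general macrophage markers were at overlapping levels in the models and their controls. Cd68, a lysosomal membrane protein of phagocytes, ranged from 7.03 to 17.3 CPM in C3 and from 11.1 to 16.8 in WT-C3, and from 12.8 to 19.1 in C22 and from 12.7 to 19.4 in WT-C22, where the lowest value comes from the shallow C3 library. Adgre1, which encodes the F4/80 antigen, ranged from 11.3 to 21.9 CPM in C3 and from 12.5 to 25.1 in WT-C3, and from 11.7 to 17.9 in C22 and from 12.6 to 17.6 in WT-C22. Csf1r had a mean of 81.1 ± 9.34 CPM (SD, n = 5) in C3 against 86.2 ± 18.4 in WT-C3, and of 91.7 ± 15.3 in C22 against 110 ± 17.4 in WT-C22. Lyz2, the macrophage lysozyme, ranged from 112 to 198 CPM in C3, from 121 to 214 in WT-C3, from 85.5 to 165 in C22 and from 109 to 169 in WT-C22. In both models the libraries of the 2 groups overlapped for each of these markers.

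None of the 4 markers passed the edgeR test in either model with all libraries and group as the only term. There 0 of them had an unadjusted p under 0.05, and DESeq2 called 0. The log2 fold changes in C3 against WT-C3 were 0.14 for Cd68 (95% interval -0.26 to 0.54), 0.02 for Adgre1 (-0.41 to 0.45), -0.08 for Csf1r (-0.38 to 0.22) and 0.02 for Lyz2 (-0.38 to 0.41). Those in C22 against WT-C22 were 0.04 for Cd68 (-0.27 to 0.34), -0.09 for Adgre1 (-0.398 to 0.215), -0.27 for Csf1r (-0.56 to 0.02, adjusted p = 0.119) and -0.18 for Lyz2 (-0.59 to 0.23). Csf1r passed in C22 without the C22 library of 9 weeks (log2 fold change -0.363, adjusted p = 0.0347), the library with the high lymphocyte markers. It also passed there in edgeR with age as a replicate block (-0.269, adjusted p = 0.0489). The intervals of all libraries leave out a change as large as a doubling in either direction. Lyz1, the near-identical paralog of Lyz2, was at most 18.6 CPM in any library, and reads shared by the pair could be lost or split in counting.

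The 2 ligands of CSF1R differed in their pattern. Csf1 ranged from 53.4 to 69.8 CPM in C3 and from 45.9 to 72.2 in WT-C3, with a log2 fold change of 0.10 (95% interval -0.18 to 0.39). In C22 it ranged from 42.6 to 61.4 CPM and in WT-C22 from 43.0 to 69.2, with a log2 fold change of -0.11 (-0.42 to 0.21). Il34, the other ligand, was 130, 146, 119, 135 and 99.2 CPM in C3 from 3 to 12 weeks, and 87.3, 109, 87.2, 97.4 and 83.9 CPM in WT-C3, a rise of 0.43 ± 0.11 on the log2 scale (SE, adjusted p = 0.0131). In C22 it was between 79.3 and 87.8 CPM and in WT-C22 between 86.0 and 130, a log2 fold change of -0.37 ± 0.09 (adjusted p = 0.00765). The 2 changes of Il34 differed from each other by -0.82 ± 0.15 on the log2 scale (adjusted p = 0.000904).

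**Figure D1:**
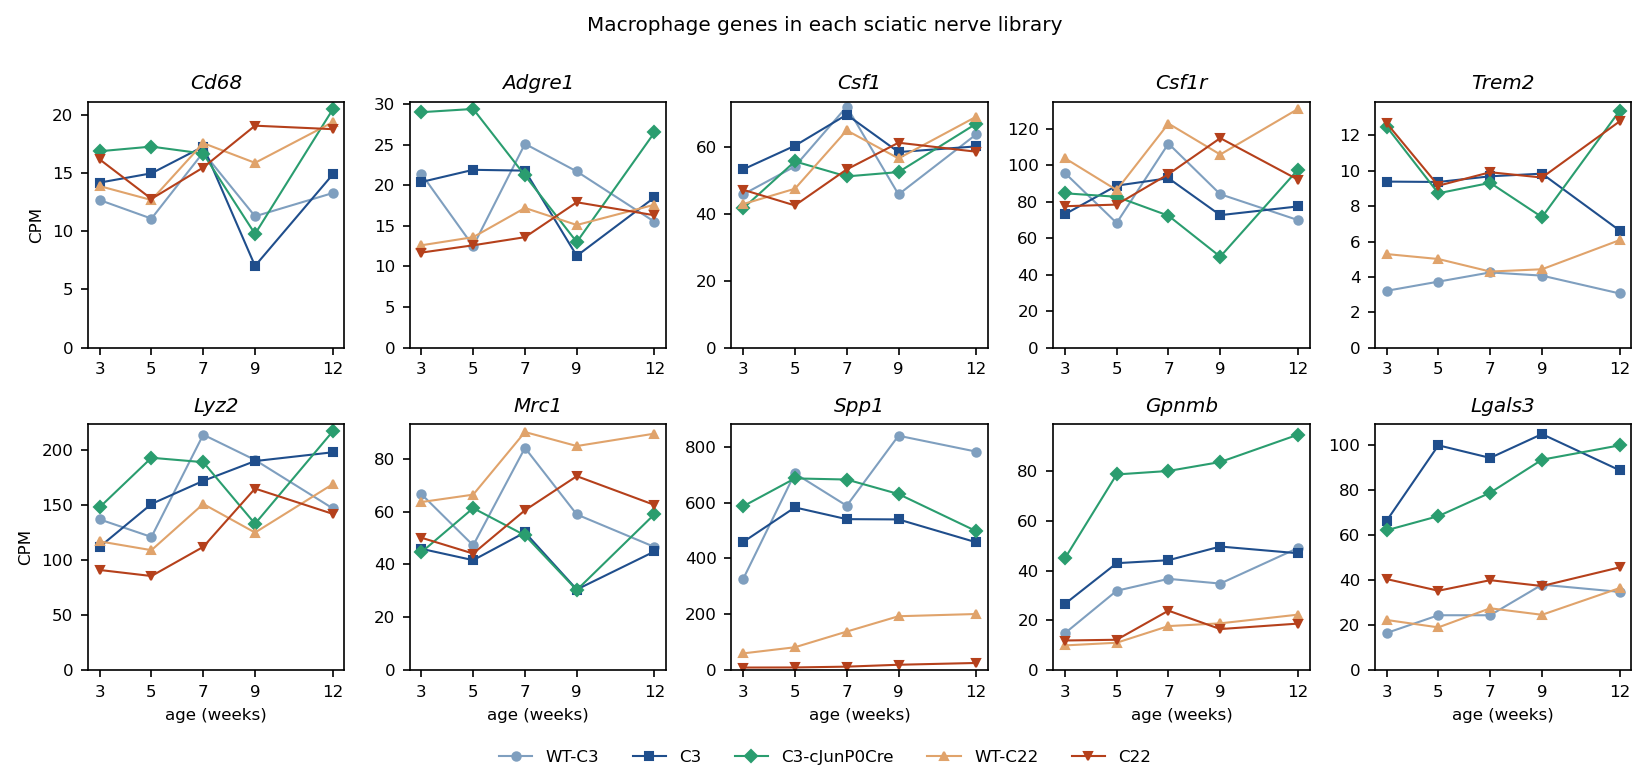
Level of each of the 10 genes in CPM (vertical axis, from 0) against age in weeks, 1 point per library, with a line for each of the 5 groups. For Trem2 the 3 transgenic groups lie above both control groups at each age, for Spp1 the C22 line lies lowest with 9.09 to 25.5 CPM, and for Gpnmb the C3-cJunP0Cre line lies highest with 44.9 to 94.7 CPM.

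Trem2 was higher in each transgenic group than in its control from the youngest age on. The gene lies on chromosome 17 (48653429 to 48661175, GRCm39, plus strand). In C3 it was at 9.39, 9.37, 9.69, 9.84 and 6.62 CPM from the youngest to the oldest age, and in WT-C3 at 3.21, 3.73, 4.25, 4.07 and 3.06 CPM. Every C3 library lay above every WT-C3 library, with the C3 library of 12 weeks the lowest of its group. The fold change was 2.44 (log2 1.29 ± 0.16, SE, adjusted p = 0.000271, higher at 5 of 5 ages). In C22 the levels were 12.7, 9.16, 9.92, 9.62 and 12.8 CPM, against 5.29, 5.01, 4.30, 4.43 and 6.08 CPM in WT-C22. Here too the groups did not overlap, and the fold change was 2.15 (log2 1.101 ± 0.14, adjusted p = 9.12e-05). The change in C22 differed from that in C3 by -0.21 on the log2 scale (95% interval -0.63 to 0.22). Counts of Trem2 are low, from 37 to 51 per library in WT-C3. The result did not rest on the shallow C3 library, since the log2 fold change was 1.27 without it (adjusted p = 0.000485).

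Lgals3, a galectin released by phagocytes that take up myelin, rose in both models, and by more in C3. The gene lies on chromosome 14 (47605208 to 47623624, GRCm39, plus strand). Its levels in C3 were 66.4, 100, 94.4, 105 and 88.9 CPM from the youngest to the oldest age, and in WT-C3 16.5, 24.4, 24.4, 38.0 and 34.8 CPM. The lowest C3 library was above the highest WT-C3 library, and the fold change was 3.26 (log2 1.70 ± 0.20, adjusted p = 0.000236). C22 libraries had 40.5, 35.3, 40.0, 37.4 and 45.7 CPM and WT-C22 libraries 22.3, 19.0, 27.5, 24.6 and 36.5 CPM. C22 was higher at 5 of 5 ages by a fold of 1.51 (log2 0.60 ± 0.15, adjusted p = 0.00742), although the WT-C22 library of 12 weeks lay above the C22 library of 5 weeks. The change in C22 minus that in C3 was -1.12 ± 0.26 on the log2 scale (adjusted p = 0.00746).

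Among the 10 members, Trem2 and Lgals3 were the 2 that rose in C3, none fell and 8 did not pass, where 23.9% of all genes tested were called in either direction. In C22 Trem2 and Lgals3 rose, Mrc1 and Spp1 fell and 6 did not pass, where 42.4% of all genes were called. The median log2 fold change of the members was 0.06 in C3 and -0.10 in C22, beside 0 over all genes in each. Gpnmb had a log2 fold change of 0.31 in C3 (adjusted p = 0.415) and of 0.05 in C22 (adjusted p = 0.898). Of the members, 2 had libraries that did not overlap between groups in C3 (Trem2 and Lgals3, 17.5% of all genes) and 2 in C22 (Trem2 and Spp1, 30.6% of all genes). The change differed between the models for 2 members, Spp1 and Lgals3, as it did for 12.1% of all genes. The change in C22 minus that in C3 was -0.12 for Cd68, -0.12 for Adgre1, -0.23 for Csf1, -0.20 for Csf1r, -0.21 for Lyz2 and -0.28 for Gpnmb, and none of these passed. With shares this large among all genes, the counts alone do not set the members apart.

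**Figure D2:**
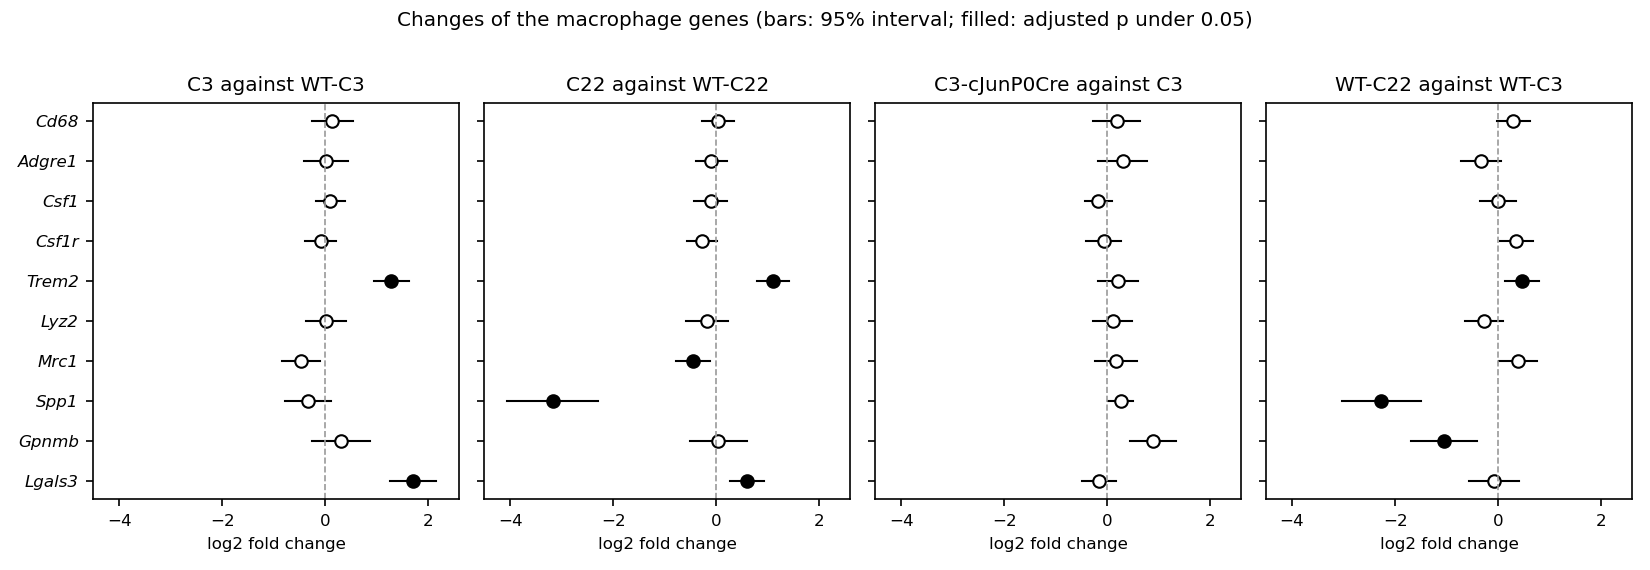
Log2 fold change of each member (horizontal axis) in 4 comparisons, with the 95% interval of the edgeR fit as a bar and filled points for an adjusted p under 0.05. Trem2 and Lgals3 are filled to the right of 0 in C3 and C22, Spp1 stands at -3.17 in C22 and at -2.26 between the controls, and no point is filled for C3-cJunP0Cre against C3.

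Set against Csf1r in the same library, which needs no scaling between libraries, Trem2 made up 8.54 to 13.5 counts per 100 counts of Csf1r in C3 (median 10.5) and 3.35 to 5.45 in WT-C3 (median 4.38). In C22 it made up 8.35 to 16.4 (median 11.7) and in WT-C22 3.48 to 5.80 (median 4.66). The libraries of the models and the controls did not overlap in this ratio either. Lgals3 had 90.7 to 144 counts per 100 of Csf1r in C3 and 17.3 to 49.6 in WT-C3, and 32.4 to 52.2 in C22 and 21.5 to 27.9 in WT-C22. Cd68 had 9.68 to 19.3 in C3 and 13.2 to 19.0 in WT-C3, which overlapped, and 16.2 to 20.9 in C22 and 13.5 to 15.0 in WT-C22, which did not. In C22 the log2 fold change was 0.04 for Cd68 and -0.27 for Csf1r, and the ratio moves with both. The share of all genes whose ratio to Csf1r does not overlap was not measured.

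**Figure D3:**
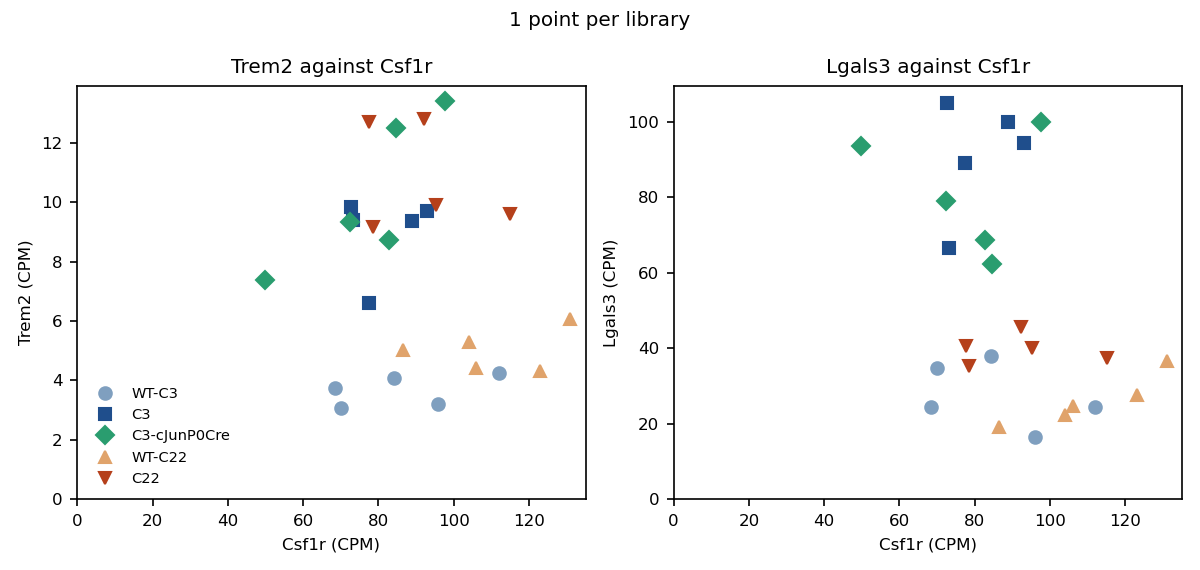
Trem2 (left) and Lgals3 (right) in CPM against Csf1r in CPM, 1 point per library, coloured by group, with both axes from 0. Over much the same range of Csf1r, the transgenic libraries lie at 6.62 CPM of Trem2 or more and the control libraries at 6.08 CPM or less, while for Lgals3 the C22 points lie near the highest control points.

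Endoneurial and microglia-like markers and epineurial markers were counted as separate lists, and most genes of each did not pass. The first list also holds genes of microglia, and whether each gene marks endoneurial macrophages was not tested. Of 10 endoneurial and microglia-like markers, 9 were tested, and in C3 3 rose, none fell and 6 did not pass (median log2 fold change 0.04), while in C22 2 rose, 1 fell and 6 did not pass (median 0.15). Of all genes, 12.5% rose and 11.4% fell in C3, and 21.9% rose and 20.5% fell in C22, so the C22 count is near the share over all genes. Trem2 is itself on this list. Cx3cr1, the fractalkine receptor, was at 35.4, 22.0, 24.3, 23.0 and 21.5 CPM in C3 and at 17.9, 8.96, 12.2, 10.8 and 11.5 CPM in WT-C3 (log2 fold change 1.05 ± 0.19, adjusted p = 0.00287). In C22 it was at 29.5, 22.3, 22.2, 20.2 and 29.2 CPM and in WT-C22 at 12.9, 11.6, 5.91, 6.82 and 9.24 CPM (1.42 ± 0.21, adjusted p = 0.000268). Neither pair of groups overlapped for Cx3cr1. P2ry12, a purinergic receptor of microglia, rose in C3 by 0.37 ± 0.10 (adjusted p = 0.0173), and Siglech fell in C22 by 0.65 on the log2 scale (adjusted p = 0.043). Sall1, a factor that defines microglia, was at most 0.570 CPM and was not tested.

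Mrc1, the mannose receptor CD206, was lower in C22 than in WT-C22 at 5 of 5 ages. The gene lies on chromosome 2 (14234151 to 14336926, GRCm39, plus strand). Its levels were 50.1, 44.1, 60.5, 73.4 and 62.5 CPM in C22 and 63.6, 66.4, 90.1, 84.8 and 89.5 CPM in WT-C22, and the groups overlapped. The log2 fold change was -0.45 ± 0.15 (adjusted p = 0.0289). This call was not kept with scaling by library size alone (-0.28, adjusted p = 0.182, in a scaling that moved the median log2 fold change of all genes from 0.005 to 0.174), in 1 fit of all libraries (adjusted p = 0.0555), or without the WT-C22 library of 7, 9 or 12 weeks or the C22 library of 3 or 5 weeks (log2 fold changes of -0.365 to -0.415, adjusted p of 0.0626 to 0.0784). In C3 the levels were 45.9, 41.6, 52.1, 30.5 and 44.9 CPM and in WT-C3 66.6, 47.2, 84.1, 58.9 and 46.6 CPM, also lower at 5 of 5 ages, with a log2 fold change of -0.47 ± 0.17 that did not pass (adjusted p = 0.0692). It passed with DESeq2 (adjusted p = 0.0284) and without the WT-C3 library of 5 weeks (0.0493) or of 12 weeks (0.0466). The 2 changes differed by 0.01 on the log2 scale (95% interval -0.50 to 0.51).

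The 10 epineurial markers had a median log2 fold change of -0.60 in C3 (none rose, 2 fell and 8 did not pass) and of -0.39 in C22 (none rose, 3 fell and 7 did not pass). Beside the 11.4% and 20.5% of all genes that fell, these counts do not set the list apart. Mgl2, a lectin of resident macrophages and dendritic cells, was at 4.80, 8.48, 13.0, 7.50 and 17.3 CPM in C3 and at 24.3, 23.3, 37.8, 30.8 and 31.8 CPM in WT-C3 (log2 fold change -1.48 ± 0.29, adjusted p = 0.00456). In C22 it was between 7.00 and 13.6 CPM and in WT-C22 between 19.4 and 24.5 CPM (-1.17 ± 0.15, adjusted p = 0.000101). Cd163, the haemoglobin scavenger receptor, fell in C3 (-0.70 ± 0.23, adjusted p = 0.0441) and in C22 (-0.94 ± 0.24, adjusted p = 0.00845). Clec10a fell in C22 (-0.44 ± 0.13, adjusted p = 0.0213). The summed level of the 10 epineurial markers was between 121 and 237 CPM in C3, 211 and 482 in WT-C3, 197 and 363 in C22, and 248 and 476 in WT-C22. Markers of perineurial cells, the sheath around the endoneurium, also fell (5 of 7 in C3 and 6 of 7 in C22, with summed levels of 1320 to 1850 CPM in C3, 1410 to 2170 in WT-C3, 981 to 1230 in C22 and 1410 to 2170 in WT-C22), and their part in the fall of the epineurial markers and of Mrc1 was not tested.

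**Figure D4:**
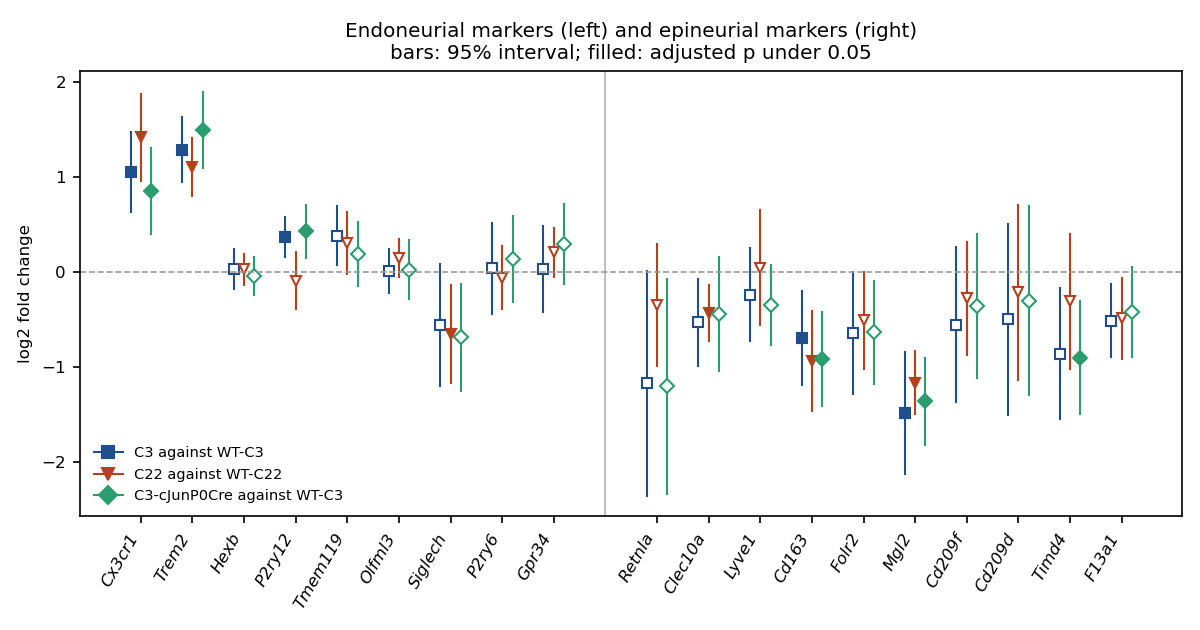
Log2 fold change (vertical axis) of the tested endoneurial and microglia-like markers (left of the line) and epineurial markers (right). Each transgenic group is set against its control, with 95% intervals and filled points for an adjusted p under 0.05. Cx3cr1 and Trem2 are filled above 0 and Mgl2 and Cd163 filled below 0 in all 3 comparisons, and most of the other genes are open.

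Spp1 was the member with the largest change, and it fell in C22. The gene lies on chromosome 5 (104582165 to 104589235, GRCm39, plus strand), and osteopontin is a secreted phosphoprotein that attracts macrophages. It was at 9.09, 9.41, 12.3, 19.1 and 25.5 CPM in C22 from 3 to 12 weeks and at 59.8, 81.8, 138, 193 and 201 CPM in WT-C22. The highest C22 library was below the lowest WT-C22 library, and the level was 8.99-fold lower (log2 fold change -3.17 ± 0.40, adjusted p = 9.17e-05). In C3 it was at 459, 583, 541, 540 and 458 CPM and in WT-C3 at 326, 705, 589, 840 and 783 CPM. The C3 libraries lay within the range of the controls, with a log2 fold change of -0.33 (95% interval -0.78 to 0.11, adjusted p = 0.261). The change in C22 minus that in C3 was -2.85 ± 0.46 (adjusted p = 0.00032). Without the WT-C3 library of 3 weeks, the lowest of its group, Spp1 was also called in C3 (log2 fold change -0.505, adjusted p = 0.0125).

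Spp1 and Gpnmb also differed between the 2 control strains. Spp1 was 4.81-fold lower in WT-C22 than in WT-C3 (log2 fold change -2.26 ± 0.35, adjusted p = 0.000659), with no overlap between the groups. The means were 135 ± 63.5 and 648 ± 204 CPM (SD, n = 5). Gpnmb, a transmembrane glycoprotein of phagocytes, was at 9.92, 11.0, 17.7, 18.8 and 22.3 CPM in WT-C22 and at 14.8, 31.9, 36.7, 34.8 and 49.1 CPM in WT-C3, lower at 5 of 5 ages (log2 fold change -1.06 ± 0.29, adjusted p = 0.023). Without the WT-C3 library of 12 weeks the adjusted p for Gpnmb was 0.0654. Trem2 was called higher in WT-C22 (log2 fold change 0.46 ± 0.15, adjusted p = 0.0495), and this call was lost under 13 of 17 alternative settings (adjusted p from 0.0381 to 0.111 over all 17). The others had log2 fold changes of 0.30 for Cd68, -0.33 for Adgre1, 0.00 for Csf1, 0.36 for Csf1r, -0.27 for Lyz2, 0.38 for Mrc1 and -0.08 for Lgals3. Without the WT-C3 library of 7 weeks Csf1r (0.47, adjusted p = 0.0373) and Mrc1 (0.53, adjusted p = 0.0279) passed. With age as a replicate block Csf1r passed (0.363, adjusted p = 0.0381) and Trem2 did not (0.467, adjusted p = 0.0863). Of the 10 members, 1 was higher, 2 were lower and 7 did not pass, beside 21.7% of all genes called. The control groups did not overlap for Trem2 and Spp1, as for 17.0% of all genes.

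Other genes of the macrophage marker lists differed between the control strains as well, and which cells made them was not tested. P2ry12 was higher in WT-C22 by 1.48 ± 0.11 on the log2 scale (adjusted p = 2.05e-06) and Mertk, the receptor for engulfment of apoptotic cells, by 0.66 ± 0.15 (adjusted p = 0.00752), while Tyrobp, the adaptor of TREM2, was lower (-0.74 ± 0.18, adjusted p = 0.0132). Markers of mast cells (7 of 8) and adipocytes (4 of 7) were higher in WT-C22, with summed levels of 70.7 to 275 CPM against 35.0 to 88.5 for mast cells. Their part in the strain difference of the members was not tested.

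Loss of c-Jun from Schwann cells of C3 mice was tested in C3-cJunP0Cre against C3, and Gpnmb had the largest difference of the members. With group as the only term, edgeR on all libraries and the filtered genes called none of the 10 members. In that fit 0.550% of all genes were called, and 2 members, Gpnmb and Spp1, had an unadjusted p under 0.05. With age as a replicate block edgeR called Gpnmb, and DESeq2 called 1 member, Gpnmb. Gpnmb, on chromosome 6 (49013426 to 49047863, GRCm39, plus strand), was at 44.9, 78.7, 80.1, 83.7 and 94.7 CPM without c-Jun and at 26.6, 43.0, 44.2, 49.7 and 47.0 CPM in C3. It was higher at 5 of 5 ages, and at each age but 3 weeks above the highest C3 library. The log2 fold change was 0.89 ± 0.21 (95% interval 0.437 to 1.335, adjusted p = 0.122). Libraries of the same age resembled each other in these 2 groups, and with age as a replicate block the log2 fold change was 0.86 with an adjusted p of 0.000485. Gpnmb also passed with DESeq2 (adjusted p = 0.00332), without a filter on low counts (0.0242) and without the C3-cJunP0Cre library of 3 weeks (0.0159).

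Trem2 was at 12.5, 8.73, 9.32, 7.38 and 13.4 CPM without c-Jun, a log2 fold change against C3 of 0.21 (95% interval -0.19 to 0.61). Lgals3 was at 62.2, 68.5, 78.9, 93.6 and 100 CPM (-0.16, -0.49 to 0.17), and Csf1 ranged from 41.7 to 67.1 CPM (-0.17, -0.43 to 0.10). Spp1 was at 587, 687, 683, 631 and 498 CPM, higher than C3 at 5 of 5 ages with a log2 fold change of 0.26 (0.025 to 0.504, adjusted p = 0.573). The other members had log2 fold changes of 0.18 for Cd68 (-0.279 to 0.648), 0.30 for Adgre1 (-0.179 to 0.780), -0.06 for Csf1r (-0.406 to 0.279), 0.11 for Lyz2 (-0.268 to 0.491) and 0.18 for Mrc1 (-0.232 to 0.590). The log2 fold changes against C3 of Cx3cr1 (-0.19, adjusted p = 0.896), Mgl2 (0.13, adjusted p = 0.984) and Cd163 (-0.21, adjusted p = 0.915) did not pass. Among repair Schwann cell markers in the same comparison Jun, Ngfr and Btc fell (3 of 9 tested), beside 0.329% of all genes. Jun is the targeted gene of the knockout, so its fall was set by the design. Ngfr was lower by 1.08 on the log2 scale (-1.08 ± 0.10, adjusted p = 0.000288).

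Against WT-C3, the knockout group had the rise of Trem2 and Lgals3 seen in C3, which shares these controls, and a rise of Gpnmb. Trem2 was 2.82-fold higher (log2 1.49 ± 0.19, adjusted p = 0.000154), Lgals3 2.91-fold (1.54 ± 0.21, adjusted p = 0.000256) and Gpnmb 2.28-fold (1.19 ± 0.26, adjusted p = 0.00717). The others had log2 fold changes of 0.32 for Cd68, 0.31 for Adgre1, -0.07 for Csf1, -0.15 for Csf1r, 0.12 for Lyz2, -0.30 for Mrc1 and -0.07 for Spp1, and Cd68 passed without the C3-cJunP0Cre library of 9 weeks (0.454, adjusted p = 0.0331). Trem2, Lgals3 and Gpnmb rose, none fell and 7 did not pass, beside 21.5% of all genes called. For Trem2 and Lgals3 no library of either group overlapped, which held for 16.3% of all genes.

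With age, the general markers and Trem2 showed no called change, and Spp1 rose in both FVB/NRJ groups. In a spline of age fitted to all libraries, Spp1 was the 1 member called in WT-C22 (adjusted p = 0.00631, linear slope 0.21 ± 0.04 log2 per week, 2.58% of genes called) and the 1 called in C22 (adjusted p = 0.0368, slope 0.18 ± 0.03, 0.520% of genes called). In C22 the call was lost with the log2 CPM filter of the other comparisons in place of the filter used for the splines. No member was called in WT-C3 (0.580% of genes), C3 (1.89%) or C3-cJunP0Cre (2.82%), where 4, 1 and 6 members had an unadjusted p under 0.05 and the likelihood ratio test of DESeq2 called 3, 0 and 2. As a linear slope, Gpnmb was also called in WT-C22 (0.14 ± 0.04 log2 per week, adjusted p = 0.0481). In WT-C3 the linear slope of Lgals3 was 0.12 ± 0.03 log2 per week (adjusted p = 0.0216) and that of Gpnmb 0.15 ± 0.04 (adjusted p = 0.0547), and its Gpnmb libraries ran from 14.8 CPM at 3 weeks to 49.1 at 12 weeks. The slope of Trem2 was between -0.05 and 0.02 log2 per week in all 5 groups. The time courses did not differ for any member between C3 and WT-C3 (0.0221% of genes called, 1 member, Spp1, with an unadjusted p under 0.05) or between C22 and WT-C22 (0.0387% of genes called, 0 members), and DESeq2 called 0 members in each. With 1 library per age, only changes along the whole course could be tested.

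Other genes of these pathways moved less evenly. Of 20 further macrophage markers, 2 rose, 1 fell and 17 did not pass in C3, and 3 rose, 1 fell and 16 did not pass in C22, shares below the 23.9% and 42.4% of all genes called. The 1 that fell was Cd163 in each model, which is also on the epineurial list. Mertk rose in C3 from a mean of 64.3 to 117 CPM (log2 fold change 0.85 ± 0.13, adjusted p = 0.00115) and in C22 from 102 to 143 CPM (0.48 ± 0.13, adjusted p = 0.0135), and Mpeg1, a pore-forming protein of phagocytes, rose in C3 (0.76 ± 0.18, adjusted p = 0.0108). C1qa, of the complement first component, was near 0 in its log2 fold change (-0.10 in C3 and 0.07 in C22). Of the 11 tested genes of CSF1R and TREM2 signalling, 3 rose and none fell in C3 (Trem2, Il34 and the lipid phosphatase Inpp5d, 0.44 ± 0.13, adjusted p = 0.0252). In C22 2 of them rose and 3 fell, among them Dok2 (-0.79 ± 0.17, adjusted p = 0.0031) and Sirpa (-0.48 ± 0.06, adjusted p = 0.000118).

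Of 19 tested genes of lipid-associated macrophages, 3 rose and 5 fell in C3 and 4 rose and 3 fell in C22, beside the same 23.9% and 42.4% of all genes. Abca1, the cholesterol exporter, had a mean of 105.5 CPM in C3 and 51.7 in WT-C3 (log2 fold change 1.03 ± 0.13, adjusted p = 0.000366) and of 168 CPM in C22 and 69.9 in WT-C22 (1.25 ± 0.15, adjusted p = 5.33e-05). Lipa, the lysosomal acid lipase, fell in C22 (-0.87 ± 0.08, adjusted p = 8.35e-06), while the tetraspanins Cd63 (1.00 ± 0.13, adjusted p = 0.000129) and Cd9 (-0.96 ± 0.15, adjusted p = 0.000339) moved in opposite directions there. Lpl (-0.81 ± 0.27, adjusted p = 0.0469) and the fatty acid transporter Cd36 (-0.78 ± 0.25, adjusted p = 0.0449) fell in C3. Most of these genes are also expressed by Schwann cells or adipocytes. Of 8 tested monocyte and recruitment genes, Cx3cl1, the ligand of CX3CR1, rose in C3 (0.61 ± 0.16, adjusted p = 0.0174), and Thbs1 and Vcan fell in C22 (-0.93 and -0.57, adjusted p = 0.000885 and 0.00162). Ccr2, the receptor of recruited monocytes, had a log2 fold change of -0.06 in C3 and -0.16 in C22 and did not pass.

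Markers of immature and repair Schwann cells moved with the models too. Of 9 tested genes of this list, 7 rose in C3 and 6 rose and 2 fell in C22. Of all genes, 12.5% rose in C3, and 21.9% rose and 20.5% fell in C22. In C3-cJunP0Cre against WT-C3, 6 rose and 2 fell, beside 10.3% and 11.3% of all genes. The list holds Jun, the targeted gene of that group. Summed levels were 414 to 532 CPM in C3 against 195 to 227 in WT-C3, and 331 to 459 in C22 against 203 to 243 in WT-C22. Their part in the changes of Trem2, Lgals3 and Spp1 was not tested.

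Across the 25 libraries, Cd68, Adgre1, Csf1r and Mrc1 varied together once the mean of each group was removed. The correlations of log2 CPM within groups were 0.88 for Adgre1 and Mrc1, 0.87 for Csf1r and Mrc1, 0.84 for Adgre1 and Csf1r and 0.83 for Cd68 and Adgre1, and 0.80 for Gpnmb and Lgals3. Cd68 had 0.84 with Mrc1 and 0.74 with Csf1r. Lyz2 had 0.43 with Cd68, 0.48 with Adgre1, 0.62 with Mrc1 and 0.69 with Csf1r. Trem2 had 0.22 with Mrc1, 0.28 with Cd68, 0.30 with Adgre1 and 0.41 with Csf1r. Among genes with a mean of at least 5 CPM, those closest to a member within groups were Cybb (0.896) for Adgre1, Nckap1l (0.907) for Csf1r, Ncf1 (0.922) for Mrc1, C4b (0.948) for Gpnmb, Niban2 (0.898) for Lgals3 and Anapc15 (0.726) for Trem2. Over all libraries, groups included, the closest were F13a1 (0.946) for Mrc1, Alpl (0.935) for Trem2, Kcnn4 (0.908) for Lgals3, Fcgr2b (0.931) for Gpnmb and Pkd2 (0.973) for Spp1. The points share their group, age and depth, so these values describe the libraries and were not tested.

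Exons of 6 members overlap another annotated gene. Those of Trem2, Csf1, Csf1r, Gpnmb and Lyz2 overlap a gene on the opposite strand, and those of Spp1 overlap Gm42793 on its own strand. The strand setting of the counting is not given in the sources used here, so reads of such pairs could be mixed or left uncounted.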

How the data were processed

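RNA of pooled sciatic nerves was sequenced as poly(A) libraries, 25 in all. The authors deposited raw counts per gene, made per the labels with cutadapt 2.10, STAR 2.7.5a, UMI-tools 1.1.1 and HTSeq 0.12.4 on GRCm39 with the human PMP22 locus of GRCh38. The strand setting of the counting and the c-JunP0Cre background are not given in the sources used here. From the deposited counts, genes above a log2 CPM of 1 in at least 7 libraries were kept (13993 of 56956), scaled by TMM and tested with edgeR 4.0.16 (quasi-likelihood, group as the only term, all tests two-sided, R 4.3.3). Age was tested as a natural spline of 3 degrees of freedom in 1 fit. DESeq2 1.42.0, other filters and scalings, a replicate block and leaving out each library were the alternatives. On simulated data of 13993 genes in the design of C3 against WT-C3, the test recovered 97% of genes changed by 1 and 100% of those changed by 2 on the log2 scale. The simulation had 200 changed genes and a dispersion of 0.0347, and 8 unchanged genes were called. Recovery was not split by count, so it does not speak to low-count members such as Trem2. Same-aged libraries of C3-cJunP0Cre and C3 deviated from their group means together at every age (correlations of 0.123 to 0.615), so the blocked value stands beside that comparison. Those of WT-C22 and WT-C3 (0.046 to 0.653) and of C3-cJunP0Cre and WT-C3 (0.019 to 0.351) did so too. The blocked values of members whose call changed stand beside the controls. In C3-cJunP0Cre against WT-C3 the block changed no call of a member. The 10 members were named with values in every comparison. They and the marker lists were chosen with earlier results of these data known. Of each list, the 3 called genes with the largest change and a mean of at least 5 CPM could be named, and defining markers near 0. Siglech, C1qa, Ccr2 and the levels of Tyrobp in the models were named after their values were seen. Exon lengths for CPM per kb came from GENCODE M39. Depth limits precision most in the C3 library of 9 weeks. The list of myelinating Schwann cell genes is not reported here.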

Additional observations from a re-analysis of the deposited data

Results flagged for a closer look

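Trem2 in C3 at 12 weeks, at 6.62 CPM, stood apart from the other 4 C3 libraries, which lay between 9.37 and 9.84 CPM. It was the 1 such library among 50 sets of 5 libraries tested with Dixon's criterion, where chance flags about 1 in 20 sets. The change of Spp1 in C22 minus that in C3 was -2.85 on the log2 scale (edgeR, adjusted p = 0.00032), and Spp1 was lower at 5 of 5 ages in C22 and at 4 of 5 in C3. The change of Lgals3 in C22 minus that in C3 was -1.12 (edgeR, adjusted p = 0.00746), with Lgals3 higher at 5 of 5 ages in each model. Strain and copy number cannot be told apart in these differences.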

How the results depend on the processing

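Of 1120 values of single members under the alternatives, 1033 kept their direction and side of the threshold, 21 lost the threshold, 16 passed it and 50 changed direction, none of them past the threshold and none of a called result. With age as a replicate block, 4 members were called in C3 in place of 2 (Trem2, Mrc1, Gpnmb and Lgals3). There 3691 of 13993 genes were called in place of 3345. With the block 1 member, Gpnmb, was called in C3-cJunP0Cre against C3, where 273 genes were called in place of 77. The block also gave a call to Csf1r in C22 (adjusted p = 0.0489) and between the controls (0.0381), took that of Trem2 between the controls (0.0863), and put Mrc1 in C3 at an adjusted p of 0.0298. The same-aged libraries of C3 and WT-C3 did not deviate together at every age (lowest correlation -0.224). Gpnmb was also the 1 member called in C3-cJunP0Cre against C3 with DESeq2 and without a filter. DESeq2 called 250 genes there, and 134 were called without a filter and 139 in 1 fit of all libraries. For age, a linear slope called 1 member in WT-C3 and 2 in WT-C22, a spline of 2 degrees of freedom called 2 in WT-C3, DESeq2 called 3 in WT-C3, 2 in C3-cJunP0Cre, 2 in WT-C22 and 2 in C22, and the log2 CPM filter left 0 in C22. The cause was not tested.

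Leaving out 1 library at a time called 2 to 3 members in C3, 3 to 5 in C22, 2 for the difference of the models, 0 to 1 in C3-cJunP0Cre against C3, 3 to 4 against WT-C3, and 1 to 5 between the controls, with 5 without WT-C3 replicate 7 and 1 without WT-C3 replicate 12. Of all 13993 genes, these fits called 2245 to 3683 in C3, 5058 to 6027 in C22 and 1312 to 1951 for the difference. They called 43 to 98 in C3-cJunP0Cre against C3, 2301 to 3384 against WT-C3, and 2307 to 3022 between the controls. For age, by the linear slope, it called 0 to 3 in WT-C3, 0 to 2 in WT-C22, 0 to 1 in C22 and 0 elsewhere. Changes of direction under other settings were Adgre1 in C3 (0 with DESeq2), Mrc1 in the difference of the models (-0.02 with the replicate block) and Csf1 between the controls (0 with the block). With library size only, they were Adgre1 (0.078) and Csf1 (0.062) in C22, Csf1 (0.017) and Spp1 (0.005) in C3-cJunP0Cre against WT-C3, and Csf1 between the controls (-0.009). Ranges without 1 library that crossed 0 were -0.102 to 0.126 for Adgre1 in C3, -0.231 to 0.02 for Adgre1 in the difference of the models, -0.024 to 0.122 for Cd68 in C22, -0.163 to 0.033 for Csf1 in C3-cJunP0Cre against WT-C3, -0.084 to 0.105 for Csf1 between the controls, -0.154 to 0.031 for Csf1r in C3, -0.166 to 0.063 for Csf1r in C3-cJunP0Cre against C3, -0.12 to 0.202 for Gpnmb in C22, -0.239 to 0.059 for Lgals3 between the controls, -0.072 to 0.138 for Lyz2 in C3, -0.001 to 0.2 for Lyz2 in C3-cJunP0Cre against C3, -0.138 to 0.106 for Mrc1 in the difference of the models and -0.241 to 0.039 for Spp1 in C3-cJunP0Cre against WT-C3.

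Scaling by library size only raised the calls of higher genes, to 2584 higher and 1034 lower from 1743 and 1602 in C3, to 5485 and 1736 from 3070 and 2869 in C22, to 2336 and 1169 from 1437 and 1578 in C3-cJunP0Cre against WT-C3, and to 1179 and 690 from 664 and 1023 for the difference. Low depth limits Trem2 and Cd68 most.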
